A study of Homo sapiens with 9 samples.

Results

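The forkhead genes FOXQ1, FOXF2 and FOXC1 lie beside one another in band 6p25.3, near the end of the short arm of chromosome 6. Occupancy around them was read from all peaks wholly inside a stretch of 550 kb, chromosome 6 from 1150000 to 1700000 in build hg18. The genes stand at about 1.258, 1.335 and 1.556 Mb in that build. The stretch held 45 of the 125904 peaks of 5 deposited lists. It was selected on results from these same lists, so its peak numbers and scores are descriptions and carry no test. The lists come from chromatin immunoprecipitation with sequencing (ChIP-seq) in 3 human lung adenocarcinoma cell lines, all with amplified NKX2-1 according to the series text. NKX2-1 was precipitated in NCI-H3122 (2 libraries), NCI-H1819 and NCI-H2087 (1 each). FOXA1 was precipitated in NCI-H3122 alone (1 library). Among the 9 samples are 4 input libraries, which were not analysed here. The cells are called H3122, H1819 and H2087 below. Each line is a single model of its tumour, none was treated, and nothing in the labels says that the H3122 pair came from separate cultures. Expression of the 3 forkhead genes, or of any lung marker, was not measured in these lists.

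NKX2-1 is a homeodomain transcription factor that sets up and maintains lung epithelial identity. FOXA1 is a forkhead pioneer factor, able to bind its sites in closed chromatin, and works beside NKX2-1 in lung epithelium. FOXQ1, FOXF2 and FOXC1 belong to the same forkhead family as FOXA1. FOXQ1 is active in epithelia and has been linked to invasion and to the epithelial to mesenchymal transition in carcinomas. FOXF2 is best known from mesenchyme of the gut and palate, and FOXC1 from the anterior eye and the vessels, where loss of a copy causes Axenfeld-Rieger malformations in people. In the order of RefSeq genes, FOXF2-DT lies between FOXQ1 and FOXF2, FOXCUT just before FOXC1, and GMDS, which encodes an enzyme of GDP-fucose synthesis, just after it. Annotation of hg18 was not used here, so distances are measured to the approximate gene positions above and are no better than about 1 kb.

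The peak with its centre nearest to any of the gene positions was a FOXA1 peak, about 1 kb from that of FOXQ1. The FOXA1 peak lay from 1256893 to 1257344, with its centre 0.9 kb from the FOXQ1 position, and scored 284.8, above 74.2% of the FOXA1 list. The score is the authors' own value for a peak. Its scale is not stated, so scores are compared here within a list only. For orientation, the 250 bases before the start of FOXQ1 in RefSeq are shown, chr6:1311848-1312097 of build GRCh38.p14, plus strand. This is not the build of the peaks, so whether the FOXA1 peak covers these bases cannot be told. Capitals mark 2 overlapping copies of the forkhead core TGTTT, both read on the opposite strand.

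FOXQ1 upstream, 5′ to 3′: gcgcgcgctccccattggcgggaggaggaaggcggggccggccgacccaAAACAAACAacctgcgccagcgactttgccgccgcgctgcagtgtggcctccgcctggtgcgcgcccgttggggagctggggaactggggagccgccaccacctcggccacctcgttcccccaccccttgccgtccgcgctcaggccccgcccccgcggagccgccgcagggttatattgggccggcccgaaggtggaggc

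These matches begin 201 and 197 bases before the start. Searched on both strands, TGTTT occurs in 40.4% of the 35116 upstream stretches of the same length in RefSeq, so its presence is common. It was absent from the FOXF2 and FOXC1 stretches. The longer forkhead motif TGTTTAC (2.98% of all stretches) and the NKX2 motifs CAAGTG (9.50%) and CTCAAG (10.4%) were in none of the 3. TGTTT lies within TGTTTAC, and CAAGTG and CTCAAG can overlap each other. These are matches of letters and not measured sites.

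The 45 peaks fell into 26 separate regions, grouped into a pair between FOXQ1 and FOXF2, a loose set around FOXQ1 in H3122, and a cluster on the far side of FOXC1. H3122 NKX2-1 replicate 1 had 4 peaks in the stretch, H3122 replicate 2 had 17, H1819 had 6, H2087 had 2 and FOXA1 had 16. The density was 3.0 times the genome mean of the list in replicate 1, 1.98 times in replicate 2, 2.49 times in H1819, 0.776 times in H2087 and 2.11 times for FOXA1. Against the mean of chromosome 6 alone it was lower in every list. There it was 2.41 times in replicate 1, 1.45 in replicate 2, 2.10 in H1819, 0.700 in H2087 and 1.46 for FOXA1. When the genome was cut into 5484 windows of the same length, at least as many peaks were found in 10.5% of windows for replicate 1, 14.2% for replicate 2, 13.8% for H1819, 44.3% for H2087 and 11.5% for FOXA1. The stretch was therefore above the mean in 4 lists, with many windows as dense in each. H2087 stood below its mean with all peaks, but above it, at 1.5 times, when the 7469 best-scoring peaks of every list were used. That number is the size of the shortest list, and with it the density was 3.0 times the mean in replicate 2 and 4.50 times in H1819 and for FOXA1. The median score of the peaks in the stretch was above that of the list each time, at 211 against 73.3 in replicate 1, 166 against 138 in replicate 2, 335 against 124 in H1819, 3100 against 149.7 in H2087 and 283 against 139 for FOXA1. The sources used here give no read depth, and peak numbers are not amounts of binding that could be set against each other between lines. The map of scores along the stretch shows where these peaks fall.

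**Figure D1:**
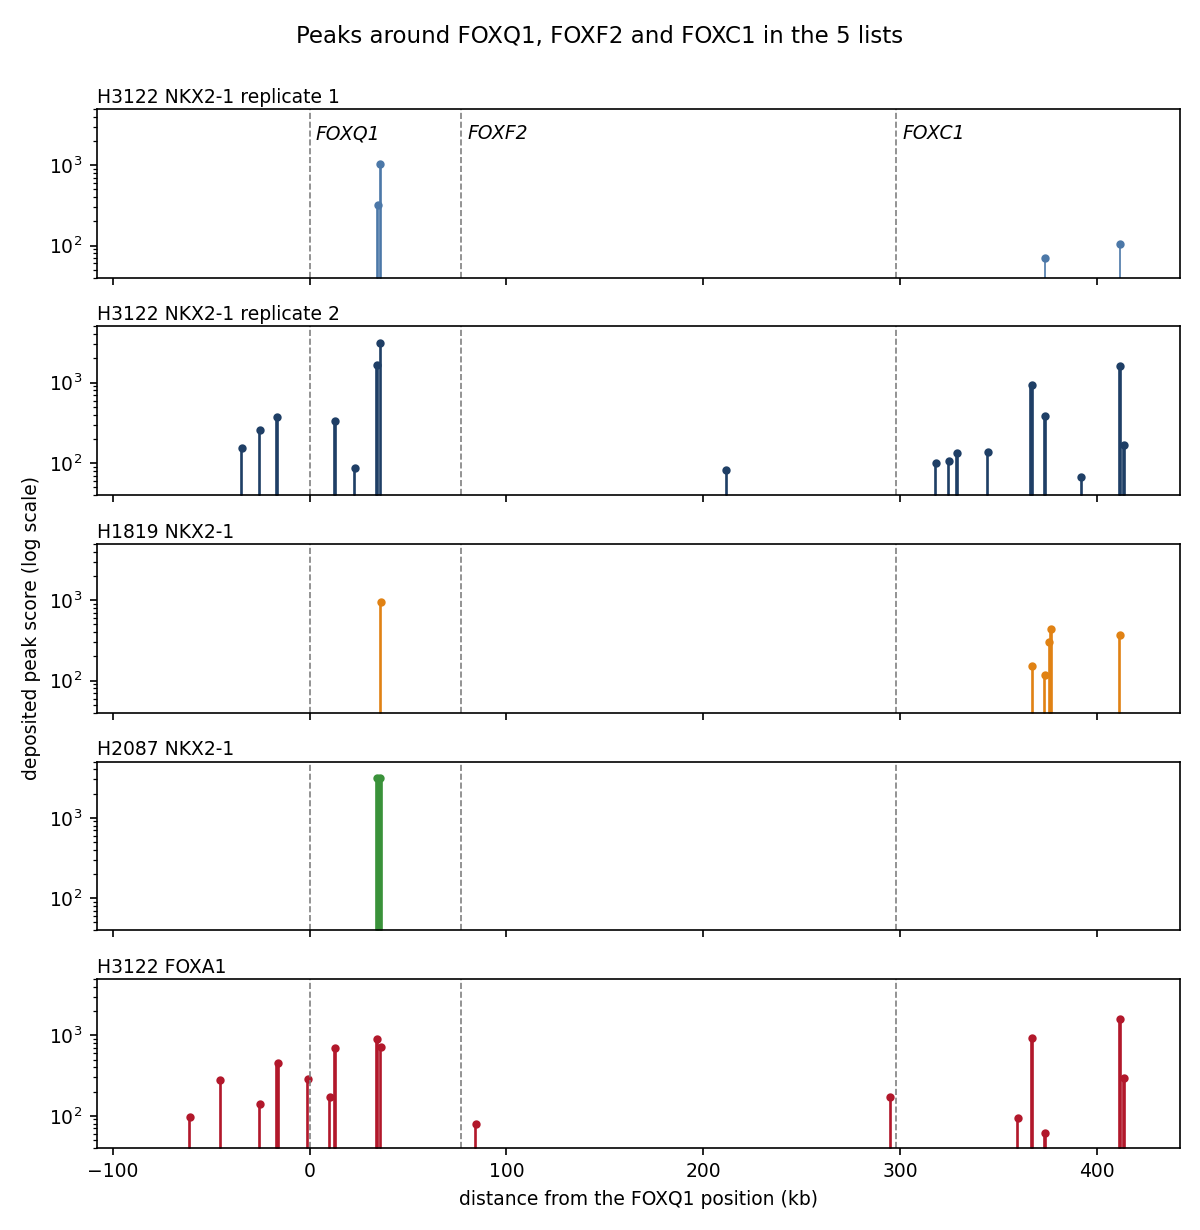
Peak positions and deposited scores (log scale) in the 5 lists, plotted by distance from the FOXQ1 position in kb; each stem is 1 peak as wide as the peak itself, and dashed lines mark the approximate positions of FOXQ1, FOXF2 and FOXC1. All 4 NKX2-1 lists and FOXA1 meet 36 kb past FOXQ1, the space between FOXF2 and FOXC1 is nearly empty, and H2087 has no peak after FOXC1.

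Within the stretch, the highest score of every NKX2-1 list was reached at the same place, 36 kb past FOXQ1 and 41 kb before FOXF2. Peaks of all 5 lists overlapped there, in a region from 1292953 to 1294935. NKX2-1 scored 1038 in H3122 replicate 1 and 3100 in replicate 2. It scored 950.3 in H1819 and 3100 in H2087, and the FOXA1 peak had 720.2. In replicate 1 this was the third highest peak of 7469. In replicate 2 it was among 82 peaks tied at 3100, the value at which scores pile up, with 13 peaks above. In H2087 it was among 65 such ties with 8 above. The H1819 peak stood at rank 360 of 13486 and the FOXA1 peak at rank 3694 of 42437, so FOXA1 was strong here but not extreme. Among the 962 regions of the genome with NKX2-1 peaks in all 4 lists, the region held place 6 by mean rank of score. This place is part of what selected the stretch. The centres of the H3122 replicate 1, H1819 and FOXA1 peaks lay within 25 bp of the centre of the replicate 2 peak, and that of the wider H2087 peak lay 50 bp from it.

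Beside it stood a second region, from 1291581 to 1292929, that 4 of the 5 lists shared. NKX2-1 scored 319 and 1635 there in the H3122 replicates and 3100 in H2087, and FOXA1 scored 896. H1819 had no peak at this place, although its peak on the first region stood above 97.3% of its list. In H2087 the scores of the pair were tied. Within H3122 the order of the pair was not the same in the NKX2-1 lists and the FOXA1 list. NKX2-1 scored lower on the second region than on the first in both replicates. The 2 regions stood above 98.7% and 99.96% of replicate 1 peaks, and 98.9% and 99.8% of replicate 2 peaks. FOXA1, with 1 library, scored higher on the second region, but its 2 peaks were close, above 93.8% and 91.3% of its list. The centres of the pair were 1415 and 1703 bp apart in the H3122 replicates, 1689 bp apart in H2087 and 1662 bp apart for FOXA1. The H2087 peaks were wide, 1349 and 1983 bp against a list median of 592, and were wider than 93.7% and 98.9% of that list. Only 23 bp separated them, against 848 and 737 bp in the H3122 replicates and 824 bp for FOXA1.

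**Figure D2:**
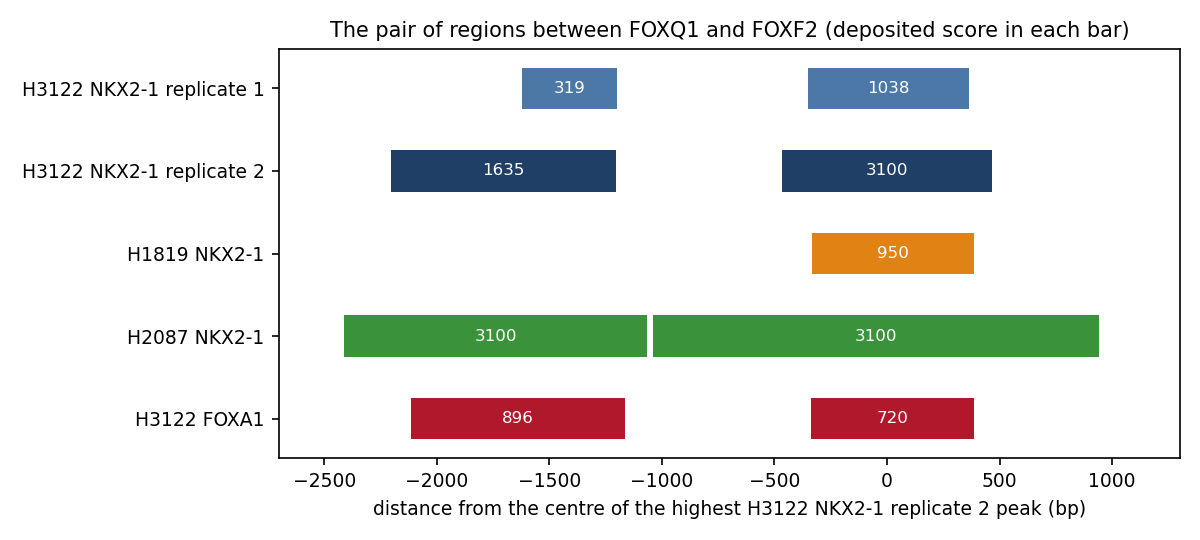
The pair of regions between FOXQ1 and FOXF2, drawn to scale in bp from the centre of the highest H3122 NKX2-1 replicate 2 peak; each bar is 1 peak from start to end with its deposited score inside, and each row is 1 list. H3122 has both peaks in each NKX2-1 list and for FOXA1, H2087 has both and nearly joined, and H1819 has the right-hand one alone.

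In H2087 these were the only peaks of the stretch, and none lay near its edges. The next H2087 peak before them ended at 367983, 923.6 kb away, and the next after them began at 1932777, 637.8 kb away. Gaps at least that long made up 4.27% and 6.56% of the gaps between neighbouring H2087 peaks, whose median was 41.1 kb. In H1819 the peak on the first region was the first of chromosome 6, and the next peak was 330.3 kb away, a length reached by 18.3% of its gaps, and in H3122 it was 337.2 kb away in replicate 1, reached by 32.5%, and 174.8 kb away in replicate 2, reached by 7.08%.

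Apart from the pair, NKX2-1 was found around FOXQ1 only in H3122 replicate 2, the longest list. Replicate 2 had peaks 34.5, 25.4 and 16.7 kb before FOXQ1, with scores of 155, 255 and 377, and 2 more 13.0 and 23 kb past it, with scores of 329.95 and 86.1. None of these 5 had a counterpart in replicate 1, H1819 or H2087, which is the usual case for this list. The same held for 12 of its 17 peaks in the stretch, against 65.0% of its peaks in the genome. FOXA1 overlapped 3 of them, at 25.4 and 16.7 kb before and 13.0 kb past the gene, with scores of 141, 450.3 and 700.5. At 13.0 kb past FOXQ1, FOXA1 was the stronger within its list, above 91.0% of FOXA1 peaks, while NKX2-1 stood above 80.5% of replicate 2 peaks. FOXA1 also had 4 peaks without NKX2-1 on this side. One was the peak nearest to the FOXQ1 position. The others lay 60.9 and 45.4 kb before the gene and 10.1 kb past it, with scores of 95.8, 281 and 171. The nearest peaks to FOXQ1 in the other NKX2-1 lists belonged to the pair, 34.6 kb away in replicate 1, 36.0 kb in H1819 and 34.3 kb in H2087.

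FOXF2 was the gene with the fewest peaks nearby, though within 25 kb FOXC1 had only 1 replicate 2 peak and 1 FOXA1 peak. No NKX2-1 peak of any list lay closer to it than to FOXQ1 or FOXC1, and the nearest in every NKX2-1 list was the first region of the pair, about 41 kb before it. A single weak FOXA1 peak lay 7.3 kb past it, from 1342052 to 1342504, with a score of 79.97, above 21.7% of the FOXA1 list. The 221 kb between FOXF2 and FOXC1 held 3 regions, each from 1 list. Besides that FOXA1 peak, they were a replicate 2 NKX2-1 peak 86.5 kb before FOXC1 with a score of 81.2, and a FOXA1 peak 3.1 kb before FOXC1 with a score of 173. Replicate 2 had gaps of 174.8 and 105.9 kb on the 2 sides of its lone peak, against a median gap of 21.9 kb in the list, and 14.3% of its gaps were as long as the shorter one. For FOXA1 the gap between the FOXF2 and FOXC1 peaks was 210.1 kb, a length reached by 6.57% of its gaps.

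FOXC1 had FOXA1 close to it and NKX2-1 only at a distance. Its FOXA1 peak, from 1552603 to 1553103, stood above 59.1% of the FOXA1 list. The nearest NKX2-1 peaks were 20 kb away in replicate 2 (score 100.5), 75.7 kb in replicate 1 (69.5), 69.0 kb in H1819 (152) and 262.1 kb in H2087, where the peak is the pair's. The stretch after FOXC1 held 12 regions, with 2 and 9 peaks in the H3122 NKX2-1 replicates, 5 in H1819, none in H2087 and 5 for FOXA1. By the order of RefSeq genes GMDS is the next gene on this side; how the peaks lie relative to its exons was not determined.

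Of the 12 regions after FOXC1, 3 were shared by H3122 and H1819, each time with FOXA1 as well. The first, 68.8 kb past FOXC1 (1624172 to 1625499), scored 937 in replicate 2, 152 in H1819 and 927 for FOXA1, with no peak in replicate 1. It stood above 96.3% of replicate 2 peaks and 94.2% of FOXA1 peaks, but only 59.4% of H1819 peaks. The second, 75.6 kb past FOXC1 (1631126 to 1632036), scored 69.5 and 380.5 in the H3122 NKX2-1 replicates, 116 in H1819 and 60.4 for FOXA1. Here FOXA1 was at the bottom of its list, above 0.398% of its peaks. The third, 113.6 kb past FOXC1 (1668917 to 1670347), scored 103 and 1629.9 in the H3122 NKX2-1 replicates and 367 in H1819. It held the highest FOXA1 peak of the whole stretch, with a score of 1575, above 97.8% of the FOXA1 list.

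H1819 also had 2 peaks here that no other list shared, 2 of its 6 in the stretch against 41.6% of the H1819 list. They lay 77.8 and 78.6 kb past FOXC1, from 1633498 to 1634063 and from 1634284 to 1634905, with scores of 303 and 442. Both scored above the H1819 peaks on the first and second shared regions after FOXC1, and they stood above 82.1% and 89.4% of the H1819 list. Replicate 2 in turn had 5 peaks that no other list shared on this side of FOXC1, with scores from 68.1 to 139. In the stretch these were 8 of 17, against 34.7% of the replicate 2 list. Against its own list, the H1819 peak with a score of 442 was the highest NKX2-1 peak of the stretch without FOXA1.

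**Figure D3:**
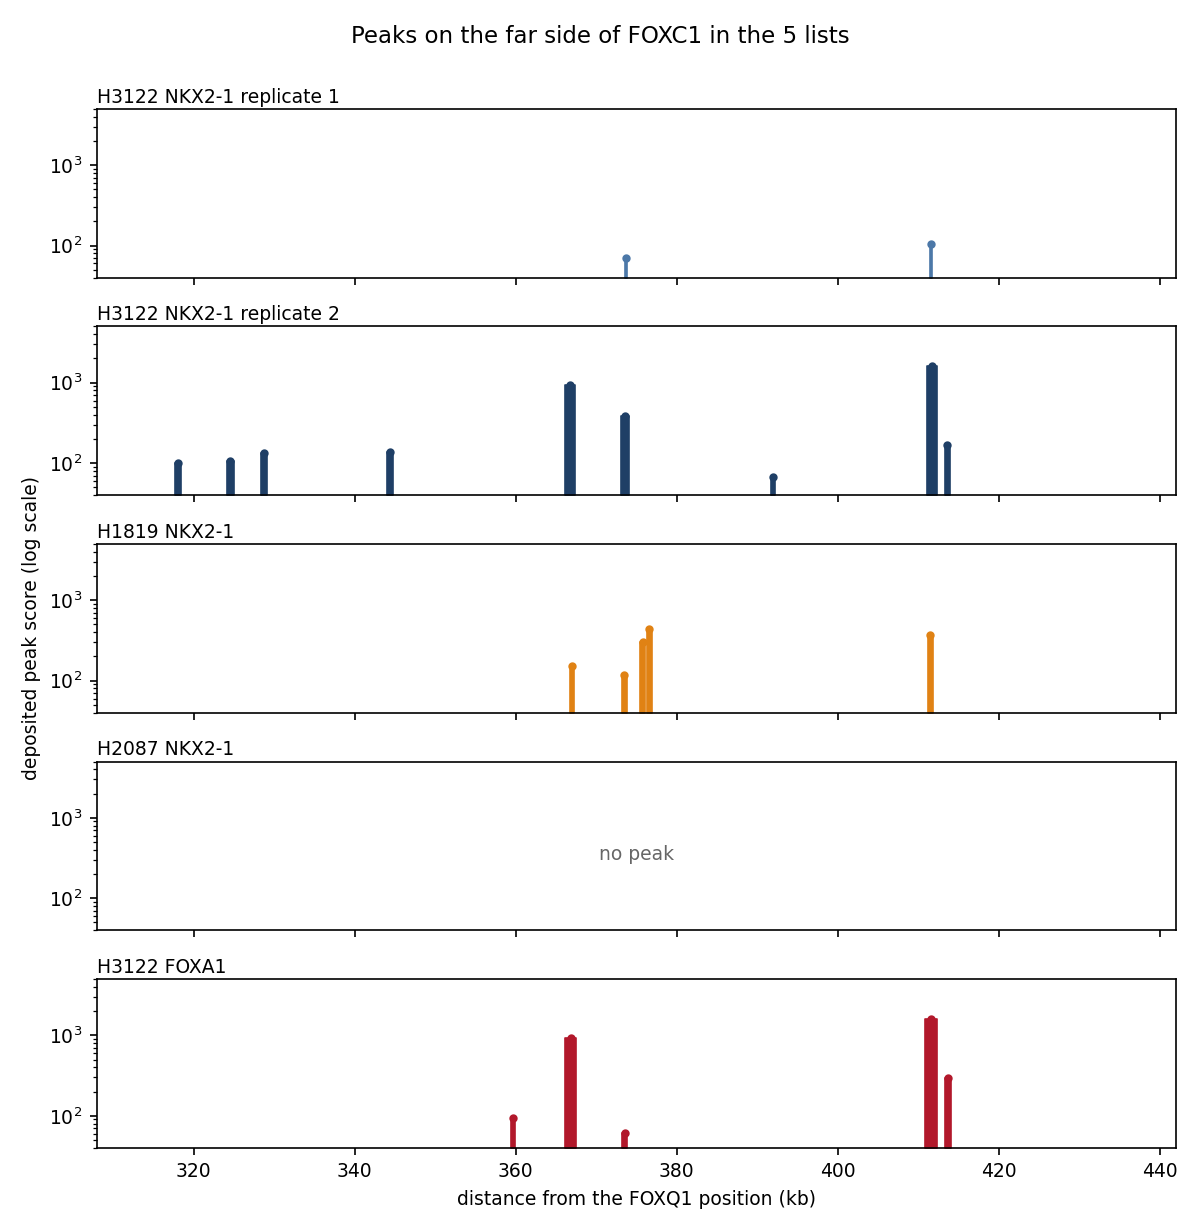
Peaks after FOXC1 in the 5 lists by distance from the FOXQ1 position in kb, with deposited scores on a log scale; each stem is 1 peak as wide as the peak itself. H3122 and H1819 share 3 places, the H1819 list has 2 peaks of its own between them, and the H2087 panel is empty.

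Agreement between lists was read against the same shares over whole lists. All 4 replicate 1 peaks of the stretch overlapped a replicate 2 peak, against 81.7% of replicate 1 peaks in the genome. Of the H1819 peaks, 4 of 6 overlapped H3122 replicate 2, a share of 66.7% (95% exact binomial interval 22.3 to 95.7) against 53.4% of the list. Both H2087 peaks did, against 67.7% of the list. The exact intervals of these 3 shares include the list-wide values. Of the 4 regions with NKX2-1 in both H3122 replicates, H1819 had a peak in 3 and H2087 in 2, and 1 had both. Over the 5972 such regions of the genome, 31.5% were in H1819, 35.9% in H2087 and 16.1% in both. H1819 shared its 3 on both sides of FOXC1, and H2087 shared only the pair. The 4 NKX2-1 lists together gave 19 merged regions, of which 12 were in replicate 2 alone and 2 in H1819 alone. Of the 59696 such regions in the genome, 52.4% were in replicate 2 alone and 10.0% in H1819 alone, so neither class stood out here. Only the region 36 kb past FOXQ1 was in all 3 lines.

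The shares of FOXA1 and NKX2-1 peaks that met lay nearer those of the H3122 genome with replicate 2 than with replicate 1. With replicate 2 the shares were close to those of the genome. Of the replicate 2 NKX2-1 peaks, 9 of 17 overlapped a FOXA1 peak, 52.9% (exact binomial interval 27.8 to 77.0) against 47.8% of the whole list. Of the FOXA1 peaks, 9 of 16 overlapped replicate 2 NKX2-1, 56.2% (29.9 to 80.2) against 54.5%. With replicate 1 standing for H3122, 4 of 4 NKX2-1 peaks lay on FOXA1 (39.8 to 100), against 50.3% of that list. Of the FOXA1 peaks, 4 of 16 lay on replicate 1 NKX2-1 (7.27 to 52.4), against 8.72%. With either replicate, the intervals include the values of the whole lists. With the 7469 best-scoring peaks of each list, 4 of 4 replicate 2 peaks lay on FOXA1. The same share over all 7469 was not computed, and over the full replicate 2 list the overlap with FOXA1 rose with score. The intervals given here cover counting error only. The H2087 pair and 4 of 6 H1819 peaks also lay on H3122 FOXA1 peaks, against 31.6% of the H2087 list and 28.7% of the H1819 list. Their exact intervals, 15.8 to 100 in H2087 and 22.3 to 95.7 in H1819, also include the list-wide values. FOXA1 was not mapped in those lines.

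In replicate 2, scores separated the NKX2-1 peaks with FOXA1 from those without. The 9 replicate 2 peaks with FOXA1 scored from 166 to 3100 with a median of 380.5, and the 8 without scored from 68.1 to 155 with a median of 104, so the groups did not overlap. Over the whole list the medians were 197 with FOXA1 and 108 without, and both groups reached scores above 3100. Among replicate 2 peaks scoring above 155, 64.2% overlapped FOXA1 in the genome, against 34.5% at or below it. H1819 did not show this order. Its 4 peaks on H3122 FOXA1 scored 950.3, 367, 152 and 116, and its 2 peaks off FOXA1 scored 303 and 442. FOXA1 peaks with replicate 2 NKX2-1 had a median score of 700.5, and those without one of 171. Over the whole FOXA1 list these medians were 207 and 99.7. In the stretch the FOXA1 peaks with and without NKX2-1 overlapped in score. The FOXA1 peak 75.6 kb past FOXC1 had the lowest FOXA1 score of the stretch, 60.4, and yet lay on NKX2-1. Another on NKX2-1, 25.4 kb before FOXQ1, scored 141, below the median of those without. The 7 FOXA1 peaks without NKX2-1 scored at most 284.8, and 2 of them were the ones nearest to FOXQ1 and to FOXC1. In the genome, 82.5% of FOXA1 peaks scoring above 284.8 overlapped replicate 2 NKX2-1, against 44.8% at or below it.

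**Figure D4:**
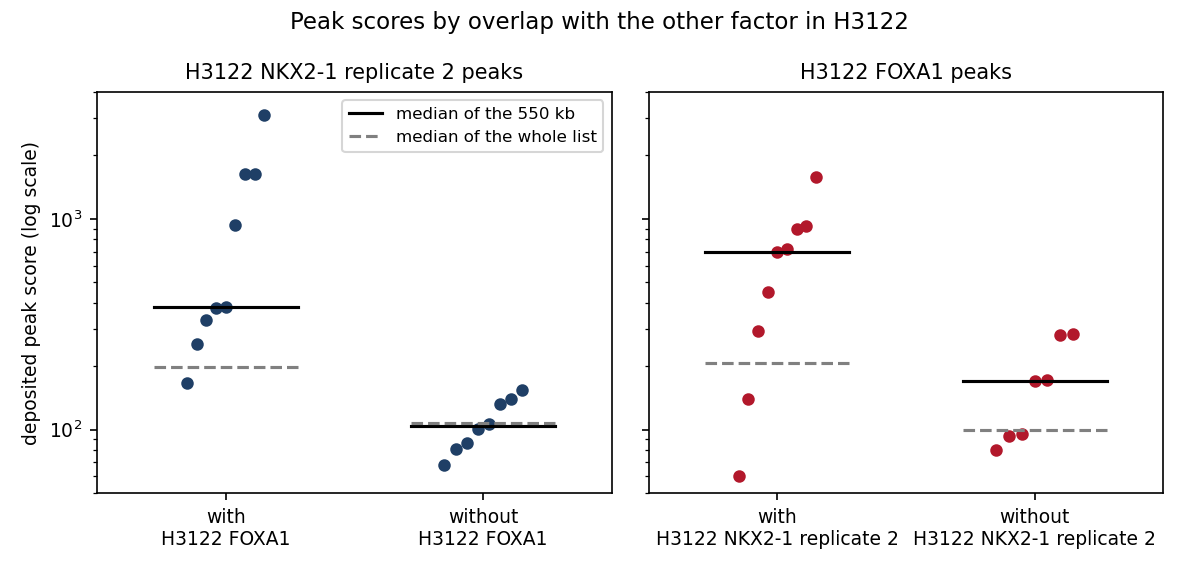
Deposited scores (log scale) of H3122 NKX2-1 replicate 2 peaks with and without a FOXA1 peak (left) and of FOXA1 peaks with and without a replicate 2 NKX2-1 peak (right); points are peaks of the 550 kb, solid lines their medians, and dashed lines the medians of the same class over the whole list. The 9 NKX2-1 peaks with FOXA1 all lie above the 8 without.

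The density was not the same in the surrounding chromosome. In the 550 kb just before the stretch, H1819 and H2087 had no peak, and the H3122 NKX2-1 replicates had 3 and 8 with 11 for FOXA1. In the 550 kb just after it, H1819 had 3 peaks and H2087 had 1, with 1 and 10 in the H3122 NKX2-1 replicates and 13 for FOXA1. H2087 reached its highest density of the neighbourhood 2.75 Mb further on, at 3.88 times its mean. The other lists were also denser elsewhere nearby than in the stretch. Replicate 1 reached 4.5 times its mean at 5.5 Mb, replicate 2 reached 2.91 at 1.65 Mb, H1819 reached 4.15 at 6.05 Mb and FOXA1 reached 2.38 at 5.5 Mb. The stretch ended within 2.3 kb of the next replicate 2 peak above it (score 77.9) and 3.3 kb of the next H1819 peak (282). At the lower edge the nearest outside peak was a FOXA1 peak 6.90 kb away (240.5). The outermost peaks inside lay further from the edges. On the lower side it was a FOXA1 peak starting at 1196834 (95.8). On the upper side they were a replicate 2 peak ending at 1671991 (166) and a FOXA1 peak ending at 1672033 (294). By the distance between log2 densities over the 5 lists, the windows of the genome most like it were in 3p14.1 (chromosome 3, 69850001 to 70400000), 8p21.2 (chromosome 8, 24750001 to 25300000) and 1p22.3 (chromosome 1, 86900001 to 87450000). Their distances were 0.43, 0.485 and 0.496, where 0 is an identical profile. In 3p14.1, NKX2-1 had 3 peaks in replicate 1, 18 in replicate 2, 5 in H1819 and 2 in H2087, with 18 FOXA1 peaks.

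**Figure D5:**
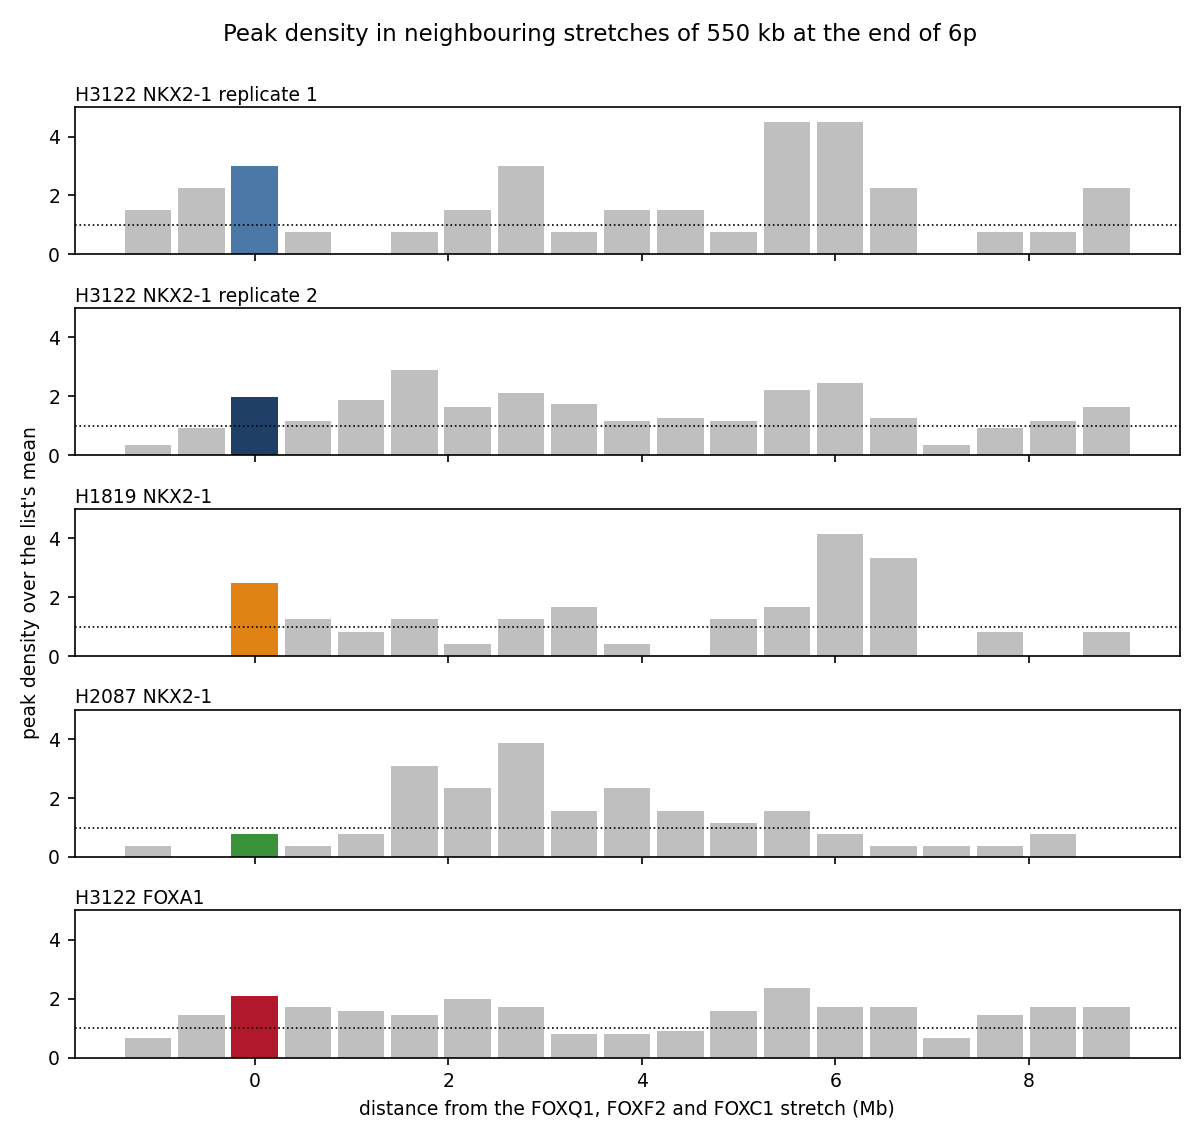
Peak density in consecutive stretches of 550 kb at the end of 6p, as a multiple of each list's genome mean (dotted line at 1), by distance in Mb from the stretch of FOXQ1, FOXF2 and FOXC1, which is coloured; each bar is 1 stretch in 1 list. With all peaks, the coloured bar stands above the line in 4 lists and below it in H2087, and every list has a taller bar further on.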

How the data were processed

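The submitters' processing notes name Bowtie, MACS 1.4.0 and build hg18, and the peak lists were deposited with 1 score per peak. Each list belongs to 1 precipitated library, per the labels; which input served as its control is not given in the sources used here. The deposited score per peak is the authors' own value and was left as it is. No source states its scale. The lowest score was 50 in H3122 replicate 1 and 60.0 in the other lists. Depth is not known.

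Peaks counted as shared at an overlap of 1 bp. The members and the rule for named regions were chosen with earlier results of these data known. Named regions were those of 3 or more lists, the highest peak of each list, the peak of each list nearest to each gene, and NKX2-1 peaks without FOXA1 in the upper decile of their list, of which there were none. Others named were chosen after their values were seen. Likeness of windows was the Euclidean distance of log2 densities after adding 1 peak. Densities used chromosome lengths from circlize 0.4.16 in R 4.3.3. Computations used Python 3.11.15 with numpy 2.4.6, pandas 2.3.3, scipy 1.17.1 and matplotlib 3.10.9. Merging and overlap were checked on simulated peaks. Alternatives changed the score limit, list length, edges, overlap rule, merging, the H3122 list, the mean used and the distance to a gene. Promoter sequences came from RefSeq (GRCh38.p14), and all 3 genes matched. Planned counts for other forkhead genes were not made, as annotation of hg18 was not used here.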

Additional observations from a re-analysis of the deposited data

How the results depend on the processing

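Of 76 alternatives over 31 results, 57 left the value within 1.5 times (numbers of peaks or regions) or within its exact interval (shares and densities), and 19 moved it. The H2087 density passed its list's mean in both score-limited settings, at 1.15 (scores of at least 100) and 1.5 (equal lists) against 0.776. It stayed below at 0.700 with the mean of chromosome 6 and at 0.569 with the stretch widened by 100 kb on each side. With 7469 best peaks per list, replicate 2 kept 4 peaks in the stretch and FOXA1 kept 6. The density of FOXA1 became 4.50, all of the 4 replicate 2 peaks (100%) had FOXA1, and merged NKX2-1 regions fell to 7. The share with FOXA1 over all of the best replicate 2 peaks was not computed. Scores of at least 100 raised the density of replicate 1 to 9.37. This rests on 3 peaks, 2 of them the pair, and the limit lies above the list's median score of 73.3. Widening by 100 kb on each side gave 26 replicate 2 and 28 FOXA1 peaks. With replicate 1 in place of replicate 2, 4 of 4 H3122 NKX2-1 peaks (100%) had FOXA1, against 50.3% of the replicate 1 list. Of the FOXA1 peaks, 4 of 16 (25%) had replicate 1 NKX2-1, against 8.72% of the FOXA1 list. Counting only peaks within 25 kb of a gene left FOXQ1 with 0 and 3 H3122 NKX2-1 peaks, 0 in H1819, 0 in H2087 and 4 for FOXA1. FOXC1 was left with 0 and 1, 0 in H1819 and 1 for FOXA1. FOXF2 kept 1 FOXA1 peak and had no NKX2-1 peak. The single region in all 3 lines remained single in each of the 5 alternatives tried. The intervals of the 2 H2087 peaks are so wide that their unchanged values say little about stability.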

Other observations

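Across the H2087 list, 1699 pairs of neighbouring peaks lay within 1 kb of each other, and 1 of these pairs had scores of 3100 or more on both sides, the one between FOXQ1 and FOXF2. No such pair occurred among 4475 in H3122 NKX2-1 replicate 2, 953 in H1819 or 3298 for FOXA1, lists with 95, 16 and 137 peaks at that score or above, against 73 in H2087. This count was chosen after the pair had been seen, and no test was run on it.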
